A study of Arabidopsis thaliana with 14 samples.

Results

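Xyloglucan endotransglucosylase/hydrolase (XTH) genes encode secreted enzymes of the cell wall. The 10 genes described here were chosen by their AGI codes as a set of family members, with earlier results of these data known, and all 10 were found among the 27861 genes of the expression table. They are XTH4 (AT2G06850), XTH9 (AT4G03210), XTH15 (AT4G14130), XTH16 (AT3G23730), XTH17 (AT1G65310), TCH4 (AT5G57560), XTH23 (AT4G25810), XTH24 (AT4G30270), XTH25 (AT5G57550) and XTH33 (AT1G10550), and TCH4 is also known as XTH22. Transcript levels are given as FPKM, the fragments of a gene scaled by its exon length and by the reads mapped in the library. The 14 libraries were made from whole rosettes of Arabidopsis thaliana Col-0 that had grown for 28 d at 20 °C. Days had 10 h of light and 14 h of dark, and the light before triggering was 100 µmol m-2 s-1. Primed plants (P) then spent 24 h at 4 °C and control plants (C) did not, and after a lag of 5 d at 20 °C both were sampled before triggering (C0, P0) or after 30, 60 and 120 min of triggering. The trigger was either cold (4 °C at 100 µmol m-2 s-1, for example C30C) or high light, heat-filtered and given at 20 °C with 800 µmol m-2 s-1 (for example P120L). Each condition is 1 library of at least 5 pooled rosettes. No condition has a replicate, so no ratio carries a p-value, and the 95% intervals given below cover only the counting of fragments. All plants had the same wild-type genotype. Plants without a trigger were not harvested at the later times, so C/C0 and P/P0 also hold any change with time of day.

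Xyloglucan is the main hemicellulose of the primary cell wall of Arabidopsis, where it coats and links cellulose microfibrils. XTH enzymes cut a xyloglucan chain and join the new end to another chain or to water, and are known for their part in the loosening and remodelling of growing walls. TCH4 is known as a gene induced by touch, by temperature shifts and by brassinosteroids. XTH15 and XTH17 are known as genes of petiole elongation in shade, and XTH4 and XTH9 as genes of stem and wood growth. XTH33 differs from most of the family in a predicted membrane anchor.

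The stretch of coding sequence around the active site is shown for the 6 genes to which most results below belong. Each is 27 bases long, and the capitals mark the codons of the catalytic glutamate residues. Sequences and coordinates are those of TAIR10.1.
TCH4: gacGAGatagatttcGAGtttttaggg
XTH24: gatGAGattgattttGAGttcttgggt
XTH33: gacGAGatagacataGAAttgttgggt
XTH4: gacGAGatagactttGAGttccttgga
XTH9: aacGAAttcgattttGAGttcttaggg
XTH16: gacGAGatagactttGAGtttcttggt
The stretch of TCH4 lies within 1 coding exon at chr5:23307839-23307865 on the minus strand. That of XTH24 lies at chr4:14820042-14820068 and that of XTH33 at chr1:3480306-3480332, both on the minus strand. XTH33 differed from TCH4 at 7 of the 27 bases, more than any of the other 8 genes (4 to 6). It is the gene with GAA as its second glutamate codon, whereas the other 5 printed genes have GAG there. Over the aligned coding sequences the closest family member of TCH4 was XTH23 (82.4% identity), and that of XTH24 was TCH4 (75.4%). XTH33 was closest to XTH30 (70.1%) and XTH17 to XTH18 (92.2%). No run of 100 bases, the read length, was shared between transcripts of 9 of the 10 genes and any other transcript, and the exception was XTH15, which shared 25.5% of its runs with the overlapping gene AT4G14120. TCH4 (chr5:23307006-23308680) and XTH25 (chr5:23304782-23306440) are neighbours with 565 bases between them. XTH24 lies at chr4:14819192-14820595, XTH33 at chr1:3479066-3481041, XTH4 at chr2:2763449-2765743, XTH9 at chr4:1415617-1417444 and XTH16 at chr3:8550037-8551403. XTH15 lies at chr4:8137020-8138392, XTH17 at chr1:24257054-24258506 and XTH23 at chr4:13128394-13129927.

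The promoters of TCH4 and XTH33, which both rose in the cold in control plants, are shown as the 250 bases before the annotated gene start, with matches to the searched motifs in capitals.
TCH4: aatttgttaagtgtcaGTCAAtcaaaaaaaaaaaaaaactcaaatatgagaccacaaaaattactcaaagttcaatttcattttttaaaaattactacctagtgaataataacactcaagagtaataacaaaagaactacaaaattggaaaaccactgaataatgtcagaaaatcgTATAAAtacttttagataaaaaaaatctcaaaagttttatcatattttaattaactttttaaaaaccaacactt
XTH33: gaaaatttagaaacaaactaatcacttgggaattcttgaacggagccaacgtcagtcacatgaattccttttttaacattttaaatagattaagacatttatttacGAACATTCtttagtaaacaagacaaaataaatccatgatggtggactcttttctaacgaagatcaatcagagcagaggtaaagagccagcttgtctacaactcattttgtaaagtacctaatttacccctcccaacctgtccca
They lie at chr5:23308681-23308930 (TCH4) and chr1:3481042-3481291 (XTH33), both on the minus strand. Searched on both strands in the promoters of 9 of the XTH genes were the core of the C-repeat CCGAC, the G-box CACGTG, the CGCG box CGCGT, the evening element AAAATATCT, the brassinosteroid elements CGTGTG and CGTGCG, the W-box core TTGAC, the heat shock element GAANNTTC and the TATA box TATAAA. None of the 9 promoters held CCGAC, the site bound by the CBF cold regulators, which was found in 11.97% of 27443 promoters of the same length. None held the G-box (6.49% of all promoters), the CGCG box (6.87%) or the evening element (2.36%). TCH4 had a W-box core at -234 (44.9% of all promoters) and a TATA box at -74 (47.3%), and XTH33 had a heat shock element at -144 (9.55%). The W-box core was also found in XTH15 and XTH23, and the TATA box in XTH16, XTH17, XTH23 and XTH25. CGTGTG was found in XTH23 and XTH25 (5.37% of all promoters). A match describes letters in this window and not a bound site.

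The 10 genes differed widely in transcript level. XTH4 was the most abundant in every library and reached 515 FPKM in C0. It was followed in C0 by XTH24 (114), XTH9 (32.6), TCH4 (25.2), XTH16 (14.6) and XTH17 (9.09). The remaining genes were weak, with 2.29 FPKM for XTH23, 1.11 for XTH33, 0.81 for XTH25 and 0.25 for XTH15. From the steps between FPKM values the depth was estimated as 22.5 M to 35.0 M fragments per library, at which 1 fragment of XTH33 was worth 0.0237 to 0.0367 FPKM. A gene was analysed further if it had 0.5 FPKM or more in both start libraries and 2 FPKM or more as its mean over all libraries. This left 7 of the 10 XTH genes (XTH4, XTH9, XTH16, XTH17, TCH4, XTH24 and XTH33) and 15001 genes in all. XTH33 reached its mean of 2.59 FPKM only through the cold libraries in which it was high, so its rise there is tied to its selection. XTH23 missed the filter narrowly with a mean of 1.94, and XTH25 (0.691) and XTH15 (0.476) lay well below it.

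**Figure D1:**
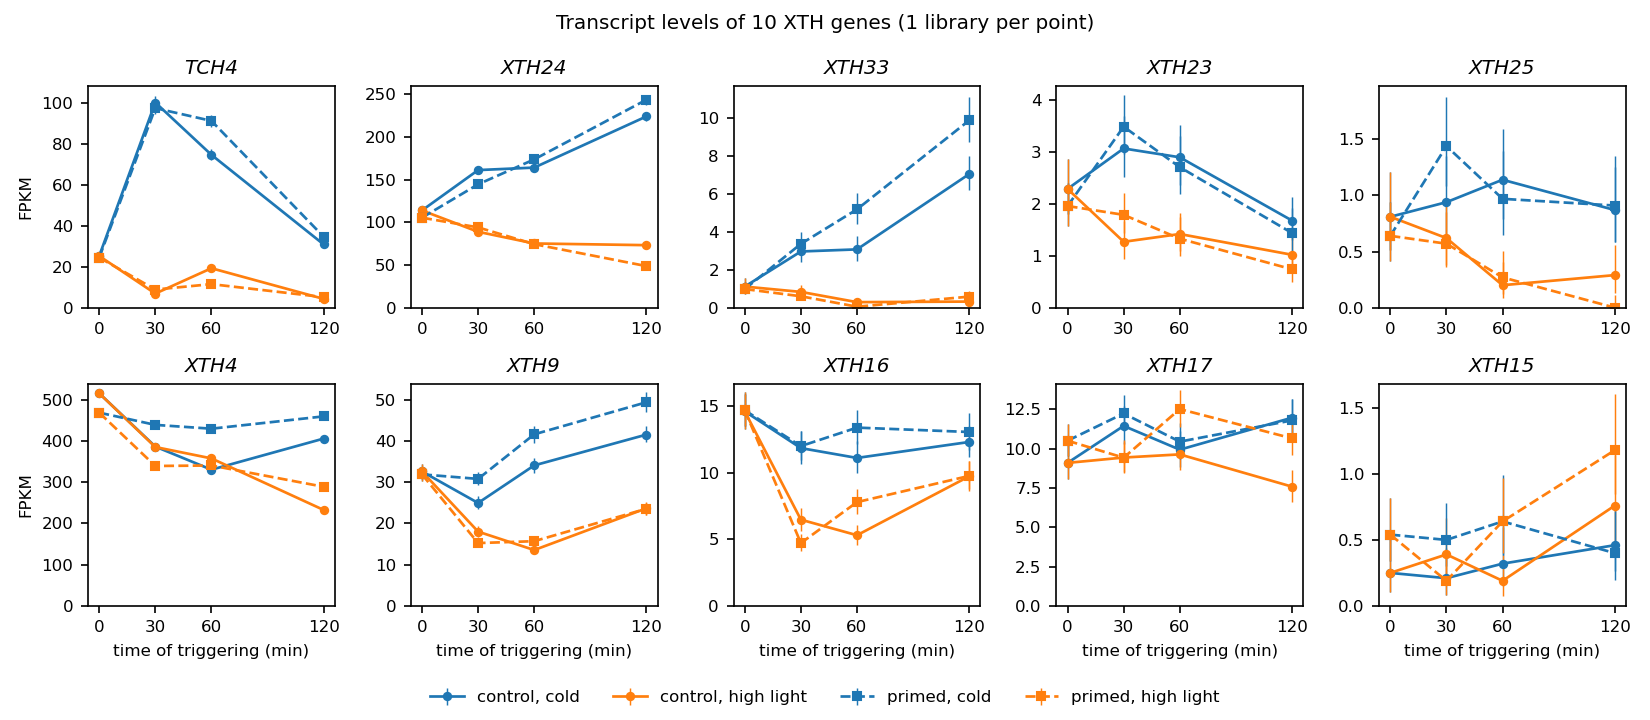
Transcript level (FPKM) of each XTH gene against time of triggering (min), with 1 library per point, control plants as solid lines and primed plants as dashed lines, cold in blue and high light in orange. Bars are 95% counting intervals. For TCH4, XTH24 and XTH33 the blue lines lie above the start and the orange lines below it, and XTH17 stays between 7.58 and 12.5 FPKM.

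Before triggering, XTH transcript levels in primed plants were close to those in control plants. None of the 7 analysed genes was higher in P0 than in C0 by 1.5-fold (0.427% of all analysed genes were) and none was lower (2.68% were). TCH4 stood at 24.5 FPKM in P0 and 25.2 in C0, XTH24 at 105 and 114, and XTH4 at 468 and 515. The log2 ratios P0/C0 ranged from -0.18 (XTH33) to 0.21 (XTH17), and their median was -0.04, beside -0.05 for all analysed genes. XTH15 had 0.54 FPKM in P0 and 0.25 in C0, which correspond to about 22 and 7 fragments. Its counting interval of the log2 ratio ran from -0.09 to 2.32 and so included no difference.

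Cold-triggering of control plants raised transcripts of TCH4, XTH24 and XTH33, each with its own course. These 3 of 7 analysed genes passed 1.5-fold upwards at some time (10.7% of all analysed genes did), and XTH4 was the only 1 of the 7 that fell (13.1% did). XTH33 counts among the 3 although it passed the filter only through its cold libraries, and without it TCH4 and XTH24 remain. TCH4 responded early. Its level was 25.2 FPKM in C0, 100.1 in C30C, 74.6 in C60C and 30.9 in C120C. The log2 ratio to C0 was 1.99 at 30 min (counting interval 1.89 to 2.09), 1.57 at 60 min and 0.29 at 120 min. Thus the peak was already reached in the first cold library, and at 120 min the gene was back inside the threshold.

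XTH24 and XTH33 reached their highest levels later than TCH4. XTH24, first described from meristems, was at 114 FPKM in C0, 161 in C30C, 164 in C60C and 224 in C120C. Its log2 ratio passed the threshold at 120 min (0.98, interval 0.92 to 1.03) and was 0.50 and 0.53 before, values that passed it after either scaling (0.59 to 0.62). XTH33 was at 1.11 FPKM in C0, 2.96 in C30C, 3.07 in C60C and 7.04 in C120C, which are log2 ratios of 1.42, 1.47 and 2.67. It was the only 1 of the 7 past the threshold at all 3 times in the cold (2.38% of all analysed genes were), and after either scaling XTH24 was past it at all 3 times too. For XTH33 this is tied to its selection, since it passed the filter only through its cold libraries. The 7.04 FPKM in C120C stand for about 239 fragments, against about 33 in C0. At single times 2 members rose at 30 min (4.05% of all analysed genes), 2 at 60 min (6.43%) and 2 at 120 min (7.96%), and TCH4 was 1 of them only at the first 2 times. With XTH33 left out by a mean of at least 10 FPKM, 1 rose at each time, and at a 2-fold threshold 1 rose at 120 min.

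The abundant XTH4 moved the other way. It was at 515 FPKM in C0, 386 in C30C, 330 in C60C and 406 in C120C, and passed the threshold at 60 min with a log2 ratio of -0.64. This call was lost with the mean of C0 and P0 as the start, an alternative chosen after the data had been seen (-0.57), and after scaling by reference genes or by the median ratio of all genes (-0.58 with either). XTH9 had 32.6 FPKM in C0 and 24.97, 34.1 and 41.6 in the 3 cold libraries of control plants, within the threshold each time. XTH16 and XTH17 also stayed within it, with log2 ratios of -0.39 to -0.25 and 0.13 to 0.40. Of the weak genes, XTH23, the closest relative of TCH4, had 2.29 FPKM in C0, 3.07 in C30C, 2.90 in C60C and 1.68 in C120C. XTH25 ranged from 0.81 to 1.14 FPKM in these libraries. The median log2 ratio of the 7 analysed members was 0.33, 0.13 and 0.35 at 30, 60 and 120 min, beside -0.12, -0.06 and -0.09 for all analysed genes.

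In primed plants TCH4, XTH24 and XTH33 also rose in the cold. TCH4 was at 24.5 FPKM in P0, 97.4 in P30C, 91.2 in P60C and 34.6 in P120C. XTH24 was at 105, 144, 174 and 244, and XTH33 at 0.98, 3.36, 5.18 and 9.87 FPKM. The log2 ratio of XTH33 in P120C/P0 was 3.33 (interval 2.85 to 3.81), and that of XTH24 was 1.21. XTH24 passed the threshold at 60 min in primed plants (0.72), where it had 0.53 in control plants, and the difference between these responses was not tested. With XTH9, which rose from 31.9 in P0 to 49.4 FPKM in P120C (0.63), 4 of the 7 analysed genes rose at some time (13.4% of all analysed genes) and none fell (9.35%). XTH33 is again among the 4, and its place there is tied to the filter that its cold libraries brought it past. XTH4 in primed plants ranged from 430 to 459 FPKM in the cold, with log2 ratios of -0.13 to -0.03. C/C0 and P/P0 rest on different libraries, but each response shares its start library over all times and both triggers.

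**Figure D2:**
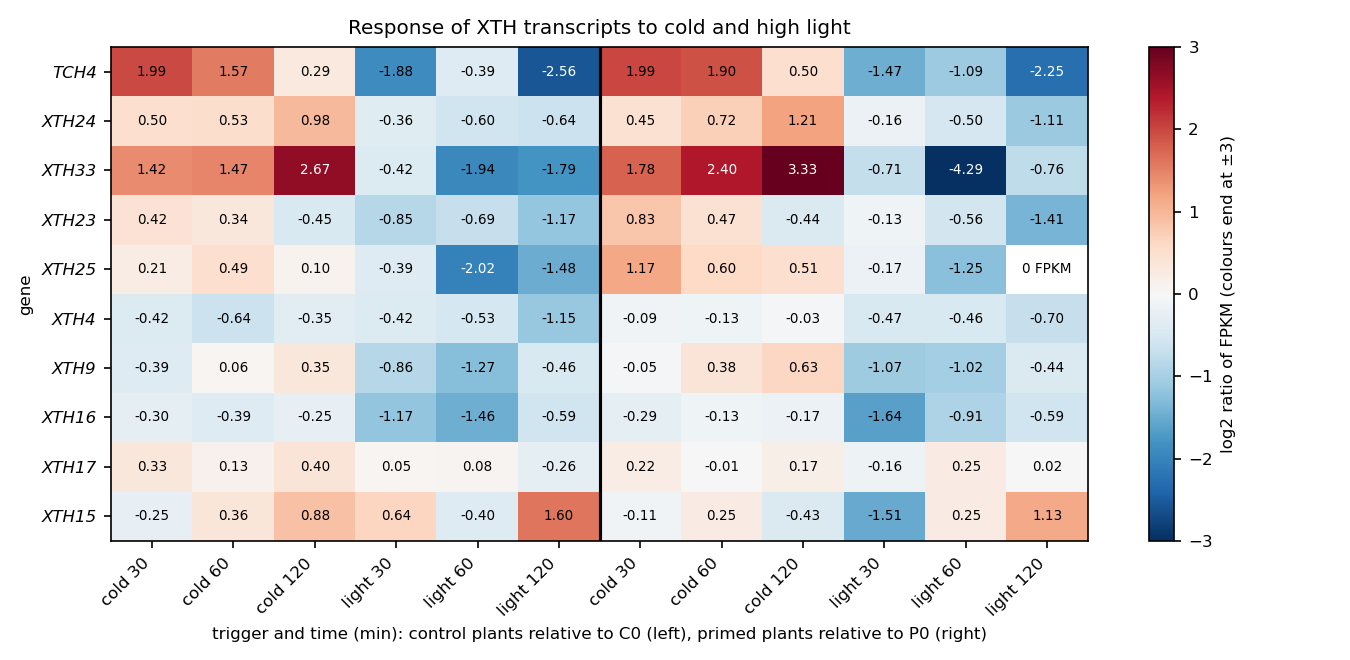
Log2 ratio of FPKM for each XTH gene (vertical) by trigger and time (horizontal), with control plants relative to C0 on the left and primed plants relative to P0 on the right. Red is higher and blue lower than the start; TCH4 is red early in the cold (1.99 at 30 min) and blue in light, and XTH33 reaches 3.33 after 120 min of cold in primed plants.

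In high light the transcripts of nearly all analysed members fell. In control plants 6 of 7 fell at some time (21.6% of all analysed genes did), the exception being XTH17, and none rose (17.5% did). At single times 3 fell at 30 min (6.91% of all analysed genes), 4 at 60 min (10.6%) and 5 at 120 min (17.1%). The last count was 3 with median scaling, which left XTH16 and XTH24 inside the threshold, and 3 at a 2-fold threshold. TCH4 was again the most responsive in the first library. It was at 25.2 FPKM in C0, 6.87 in C30L, 19.2 in C60L and 4.28 in C120L. The log2 ratio was -1.88 at 30 min (interval -2.06 to -1.69), -0.39 at 60 min and -2.56 at 120 min, so that the 60 min library stood apart from its neighbours.

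In control plants XTH16 and XTH9 were lowest at 60 min and higher again at 120 min. For XTH16 the counting intervals at 30 and 60 min overlapped (5.65 to 7.39 in C30L and 4.60 to 6.10 FPKM in C60L). XTH16, the closest relative of XTH15, was at 14.6 FPKM in C0, 6.48 in C30L, 5.31 in C60L and 9.74 in C120L. XTH9 was at 32.6, 18.02, 13.6 and 23.7 FPKM, with log2 ratios of -0.86, -1.27 and -0.46. XTH16 was the only 1 of the 7 that fell at all 3 times in control plants (3.65% of all analysed genes did), although its ratio at 120 min (-0.59) lay at the threshold itself. It was -0.51 after scaling by the median ratio of all genes and -0.54 with a pseudocount of 1 FPKM, and no gene then fell at all 3 times.

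In control plants XTH4 and XTH24 had lower values with each longer exposure, and XTH33 was low from 60 min on. For XTH24 the counting intervals at 60 and 120 min overlapped (72.4 to 78.0 in C60L and 70.2 to 76.3 FPKM in C120L). XTH4 was at 385 FPKM in C30L, 358 in C60L and 233 in C120L (log2 ratio -1.15), which is its lowest level in all 14 libraries. XTH24 was at 88.9, 75.2 and 73.2 FPKM, and its log2 ratios of -0.60 at 60 min and -0.64 at 120 min were within the threshold with median scaling (-0.56 and -0.57) or with the mean of C0 and P0 as the start (-0.54 and -0.58). XTH33 was at 0.83, 0.29 and 0.32 FPKM. Its values at 60 and 120 min stand for about 11 and 10 fragments, and the interval of the log2 ratio at 60 min was -2.93 to -0.95. XTH17 differed from all of these and was at 9.43, 9.63 and 7.58 FPKM, with 9.09 in C0.

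Primed plants showed the decline too. In P30L, P60L and P120L, TCH4 was at 8.83, 11.5 and 5.13 FPKM, XTH16 at 4.72, 7.80 and 9.77, and XTH9 at 15.2, 15.7 and 23.6. XTH4 was at 339, 340.4 and 289 FPKM, XTH24 at 94.0, 74.4 and 48.7, and XTH33 at 0.60, 0.05 and 0.58. Again 6 of 7 analysed genes fell at some time (16% of all analysed genes) and none rose (19.9%). TCH4, XTH16 and XTH33 fell at all 3 times (3.91% of all analysed genes did). With a pseudocount of 1 FPKM TCH4 alone did, since XTH16 at 120 min (-0.54) and XTH33 at 30 and 120 min (-0.31 and -0.33) were then inside the threshold. The counting intervals of XTH33 at 30 min (-1.43 to 0.01) and 120 min (-1.53 to 0.02) included no difference. Scaling by the reference genes moved the median of all analysed genes by -0.19 in P60L/P0 and -0.23 in P120L/P0, and the direction of these 6 genes was the same with it. The median log2 ratio of the 7 analysed members was -0.42, -0.60 and -0.64 in control plants at 30, 60 and 120 min, beside -0.07, -0.04 and -0.07 for all analysed genes, and it was -0.71, -0.91 and -0.70 in primed plants, beside -0.02, -0.03 and 0.06.

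Among the unanalysed members, XTH25 and XTH23 were lower in light as well. XTH25 was at 0.81 FPKM in C0, 0.62 in C30L, 0.20 in C60L and 0.29 in C120L, and was listed at 0 in P120L. XTH23 was at 2.29 in C0 and 1.27, 1.42 and 1.02 in the same light libraries. XTH15 was the exception, with 0.76 FPKM in C120L and 1.18 in P120L, which were its highest values. The interval of its log2 ratio C120L/C0 was 0.41 to 2.80.

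Marker genes of cell types were compared in the same libraries. The 5 mesophyll markers summed to 54073 to 56541 FPKM before triggering, 54050 to 58801 in the cold and 46177 to 56481 in light. The guard cell markers summed to 31.9 to 34.1 FPKM before triggering, 29.8 to 38.5 in the cold and 39.8 to 59.4 in light, where the potassium channel gene KAT1 went from 7.03 in C0 to 35.7 in C60L. Without KAT1 they summed to 25.2 to 27.1 FPKM before triggering, 23.5 to 31.3 in the cold and 19.6 to 23.6 in light. Senescence markers summed to 22.2 FPKM before triggering, 16.2 to 49.3 in the cold and 16.3 to 40.8 in light. Dividing cell markers summed to 15.9 to 18.2 FPKM before triggering, 10.2 to 17.0 in the cold and 11.4 to 15.8 in light. Phloem markers summed to 42.9 to 49.3, 32.2 to 52.8 and 36.7 to 50.8 FPKM, and xylem markers to 5.91 to 6.84, 3.65 to 6.61 and 4.28 to 6.70. In C30C, the library in which TCH4 was highest, the phloem (32.2), xylem (3.65) and dividing cell sums (10.2) were at their lowest, whereas in P30C, where TCH4 was at 97.4 FPKM, they were 43.5, 6.42 and 12.9. The 4 flower markers summed to at most 2.88 FPKM in any library. The 6 root markers summed to at most 0.89 FPKM in any library. None of these lists had a gene at 0 in all libraries. The part of such changes in the XTH values was not tested, and in whole rosettes fewer cells of a type and less RNA per cell cannot be told apart.

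The levels of cold- and light-triggered plants were also set against each other directly. For 5 of the 7 analysed members every cold library lay above every light library, whether primed or not (7.71% of all analysed genes did), and none showed the reverse (7.01% did). Without XTH33, which its cold libraries brought past the filter, 4 of 6 did. TCH4 had 30.9 to 100.1 FPKM in the 6 cold libraries and 4.28 to 19.2 in the 6 light libraries. XTH24 had 144 to 244 and 48.7 to 94.0, and XTH33 had 2.96 to 9.87 and 0.05 to 0.83. In these 3 genes C0 and P0 lay between both ranges. XTH9 had 24.97 to 49.4 FPKM in the cold and 13.6 to 23.7 in light, and XTH16 had 11.1 to 13.4 and 4.72 to 9.77. For XTH16 both ranges lay below C0 and P0 (14.6 and 14.7). The ranges of XTH4 (330 to 459 and 233 to 385) and XTH17 (9.93 to 12.2 and 7.58 to 12.5) overlapped. Outside the analysed genes XTH25 did not overlap either (0.87 to 1.44 and 0 to 0.62 FPKM). Each of these libraries is a single sample, so the ranges hold times and priming states and not replicates.

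The comparison of primed with control plants asks whether an earlier cold period alters the response to a later trigger. For most XTH genes the level in primed plants stayed within 1.5-fold of that in control plants triggered equally long (P/C). In the cold only XTH33 was higher in primed plants (5.41% of all analysed genes were higher at some time) and none was lower (3.29%). The place of XTH33 in this count is tied to its selection too, since it passed the filter only through its cold libraries. XTH33 was at 5.18 FPKM in P60C and 3.07 in C60C, a log2 ratio of 0.75 (interval 0.38 to 1.12). At 120 min it was at 9.87 and 7.04 (0.49), and at 30 min at 3.36 and 2.96 (0.18), so primed plants had the higher value at each time. At 30 min, however, the counting intervals of both levels overlapped (2.80 to 4.00 in P30C and 2.39 to 3.62 FPKM in C30C). With each group counted from its own start, the ratio at 60 min was 0.93 and that at 120 min passed the threshold with 0.67. These ratios also hold P0/C0, which rests on about 39 and 33 fragments, and no interval was computed for them.

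XTH4 and XTH9 were also above the control value at each time of cold-triggering, but within the threshold. The log2 ratios of XTH4 were 0.18, 0.38 and 0.18 at 30, 60 and 120 min, and those of XTH9 were 0.30, 0.29 and 0.25. The P/C ratio of TCH4 was -0.04, 0.29 and 0.16 and that of XTH24 was -0.16, 0.08 and 0.12. The median of the 7 analysed members was 0.10, 0.29 and 0.16, beside 0.06, 0.03 and 0.00 for all analysed genes.

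In light, 3 of 7 analysed genes were lower in primed plants at some time (7.53% of all analysed genes) and 1 was higher (6.05%). TCH4 was at 11.5 FPKM in P60L and 19.2 in C60L, a log2 ratio of -0.74 (interval -0.90 to -0.59). At 30 and 120 min its primed value was the higher one (0.36 and 0.26). The difference at 60 min thus fell on the time at which TCH4 of control plants stood above its neighbouring times. In primed plants too the 60 min value was the highest of the light values (8.83, 11.5 and 5.13 FPKM in P30L, P60L and P120L). XTH24 was at 48.7 FPKM in P120L and 73.2 in C120L (-0.59), which lay at the threshold, and counted from each group's own start the ratio was -0.48.

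XTH33 was both lower at 60 min and higher at 120 min in primed plants, on few fragments. It was at 0.05 FPKM in P60L and 0.29 in C60L, about 2 and 11 fragments, and the log2 ratio of -2.54 had an interval of -4.84 to -0.23. At 120 min the values were 0.58 and 0.32 FPKM and the interval of -0.25 to 1.97 included no difference. With a pseudocount of 1 FPKM both ratios were inside the threshold (-0.30 and 0.26). XTH16 was at 7.80 FPKM in P60L and 5.31 in C60L (0.55), inside the threshold, which it passed with median scaling (0.60), and at 4.72 in P30L and 6.48 in C30L (-0.46). XTH17 was at 10.7 in P120L and 7.58 in C120L (0.49).

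**Figure D3:**
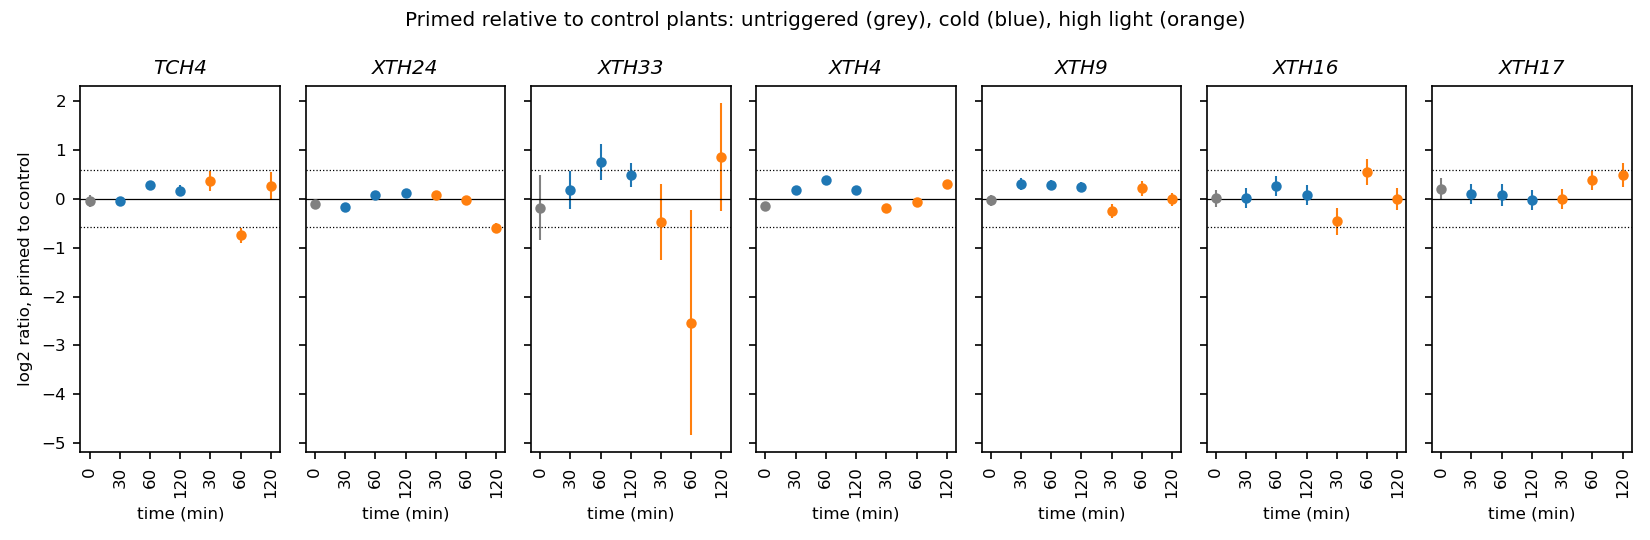
Log2 ratio of primed to control plants (vertical) for the 7 analysed XTH genes against time of triggering in min (horizontal), with P0/C0 in grey, cold in blue and high light in orange. Bars are 95% counting intervals and dotted lines mark 1.5-fold; XTH33 lies above the upper line after 60 min of cold (0.75), and TCH4 lies below the lower line after 60 min of light (-0.74).

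The other genes of the family were read as a list of 23, of which 20 were in the table and 9 passed the filters. The 10 genes described here held 45.3% to 56.0% of the summed FPKM of all XTH genes in each library, and XTH4 alone held 52.3% to 74.4% of the sum of the 10. The sum over all XTH genes was 1502 FPKM in C0 and 1455 in P0, between 1297 and 1491 in the cold, and between 693 and 1115 in light. In the cold 2 of the 9 other genes rose in control plants at some time and 1 fell (10.7% and 13.1% of all analysed genes), and in light 2 rose and 6 fell (17.5% and 21.6%). XTH6 was at 180 FPKM in C0 and 31.6 in C120L, XTH7 at 267 and 93.7, and XTH27 at 68.4 in C0 and 20.3 in C30L. XTH28 rose from 17.6 FPKM in C0 to 38.7 in C120C.

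The close relatives of XTH17 did not share its course. XTH18, at 92.2% identity, rose in the cold from 3.01 FPKM in C0 to 9.97 in C60C, where XTH17 had 9.09 and 9.93. XTH18 was also the only 1 of the 9 other analysed family genes that was higher in P0 (5.23 FPKM) than in C0 by 1.5-fold. XTH19 was at 4.07 FPKM in C0 and 17.5 in C60L, while XTH17 had 9.63 in C60L. XTH18 and XTH19 lie near XTH24 on chromosome 4, with 5161 and 8116 bases between them and it, and XTH24 fell in light.

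**Figure D4:**
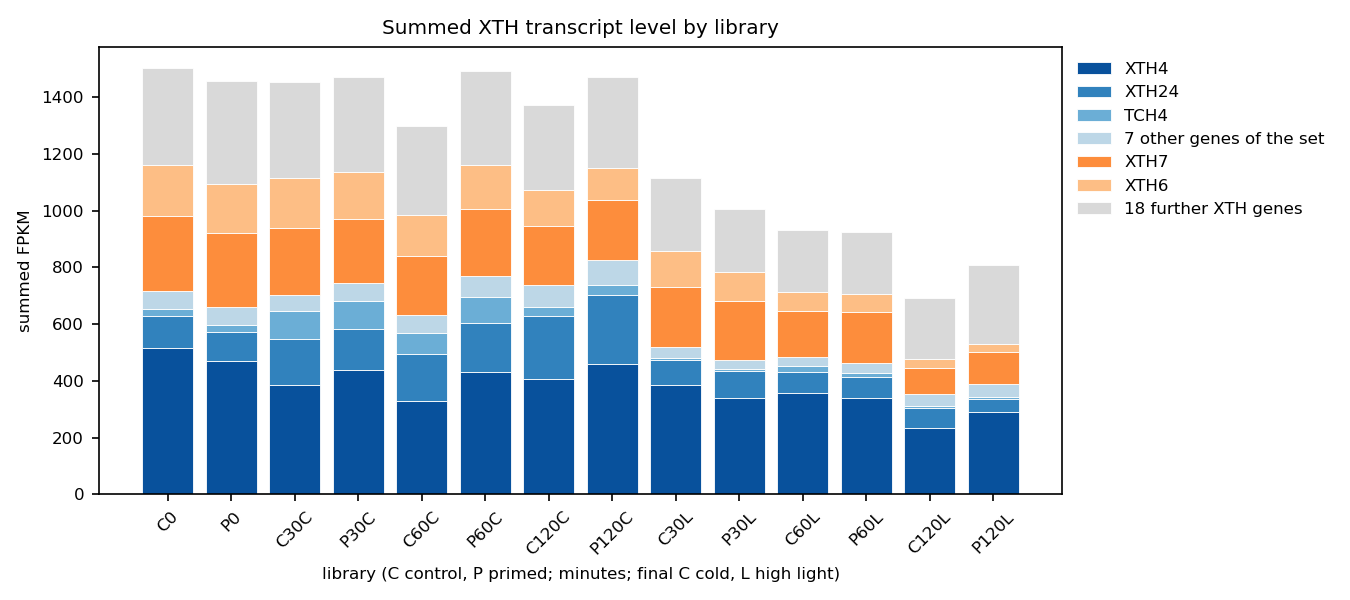
Summed FPKM (vertical) of the XTH genes in each library (horizontal; C control, P primed, minutes, final C cold or L light), stacked by gene, with the 10 genes described here in blue. The sum is 1502 in C0 and 693 in C120L, and XTH4 is the largest single gene in each library.

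Genes of the same pathway were read from lists made by function and chosen with earlier results of these data known. Of 14 genes for xyloglucan synthesis 11 were analysed, of which 1 rose and 2 fell in the cold in control plants (10.7% and 13.1% of all analysed genes) and none rose and 3 fell in light (17.5% and 21.6%). The xylosyltransferase gene XXT1, which adds side chains to xyloglucan, had log2 ratios of 0.70, 0.54 and 0.22 in the cold and -1.16, -0.34 and -0.99 in light. Among the 3 trimming enzymes the xylosidase gene XYL1 rose in light from 49.6 FPKM in C0 to 101.5 in C120L.

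Expansins, which loosen walls without cutting polymers, moved in both directions. Of 15 analysed expansin genes 2 rose and 9 fell in the cold (10.7% and 13.1% of all analysed genes), and 4 rose and 7 fell in light (17.5% and 21.6%). EXLA1 resembled XTH24 in direction, with 20.7 FPKM in C0, 53.2 in C120C and 4.22 in C120L. EXPA8 fell under both triggers, from 46.2 FPKM in C0 to 13.1 in C120C and 5.92 in C120L, and EXPA16 rose in light to 43.2 in C120L from 4.93.

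The remaining lists touch the known inducers of XTH genes. All 4 analysed touch genes other than TCH4 rose at 30 min of cold in control plants (4.05% of all analysed genes), as TCH4 did. In primed plants CML38 stayed inside the threshold at that time, with 12.27 FPKM in P0 and 16.37 in P30C. Its start libraries already differed, with 5.96 FPKM in C0. In light all 4 rose in control plants at some time (17.5%) and 3 fell at some time (21.6%). All 3 falls came at 120 min (17.1% of all analysed genes), when TCH4 had fallen too. TCH2 went from 56.6 FPKM in C0 to 17.5 in C120L, TCH3 from 105.9 to 52.1 and CML23 from 1.94 to 0.51. The remaining gene CML38, which is calmodulin-like, had log2 ratios of 2.15, 2.40 and 1.54 in the cold. In light CML38 had -0.16, 3.12 and 1.13, where TCH4 had -1.88, -0.39 and -2.56. Of 11 shade genes 6 were analysed, and in control plants all 6 rose in light at some time (17.5% of all analysed genes). All 6 also rose in the cold (10.7%). CKX5 counts among the 6 although it passed the filter only through its light libraries, so its rise in light is tied to its selection. It was at 0.93 FPKM in C0, 1.76 in C60C and 20.4 in C60L. PIL1, a bHLH gene of the shade response, went from 1.88 FPKM in C0 to 101.7 in C60L and 9.30 in C120C. XTH17 stayed inside the threshold, and the weak XTH15 had 0.25 FPKM in C0 and 0.76 in C120L. Of 5 analysed brassinosteroid synthesis genes none rose and 3 fell in the cold (10.7% and 13.1% of all analysed genes), and 1 rose and 2 fell in light (17.5% and 21.6%), with CPD at a log2 ratio of -1.33 in C120L.

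The analysed genes outside the family whose log2 FPKM followed a member most closely over the 14 libraries were sought among 14968 genes. For TCH4 they were AT1G18740 (Pearson r = 0.98), PHI-1, a phosphate-responsive gene (0.98), and NDL3 (0.97). For XTH24 they were the lipid-transfer gene PATL2 (0.97), the small GTPase gene RABA5E (0.97) and RVE1, a clock-related transcription factor (0.96). For XTH33 they were AT5G60680 (0.97), AT1G75730 (0.96) and the immune regulator PAD4 (0.96). For XTH17, whose level varied little, the highest value was 0.85 (SNRK2.1). Among the members themselves, XTH9 and XTH16 had r = 0.88 and XTH24 and XTH33 had r = 0.86, whereas XTH9 and XTH17 had 0.28. The values of XTH33 include its 0.05 FPKM in P60L, which stand for about 2 fragments, and their dependence on that library was not tested. All these values share the same 14 libraries, with their depth and triggers, and are descriptions.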

How the data were processed

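RNA-seq of 14 libraries, 1 per condition, was used. The authors aligned paired-end reads to TAIR10 and deposited FPKM values for 27861 genes. These values were used as deposited, without scaling or pseudocount. FPKM sums were 0.701 M to 0.745 M per library. Their methods name Bowtie2 and RSEM, whereas the submitters' processing notes list HISAT2 2.1.0. How strand was handled is not given in the sources used here.

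AGI codes were matched to TAIR10.1 (27768 of 27861) for coordinates, promoters and coding sequences. The promoter of XTH24 is not reported here. Ratios (P0/C0, C/C0, P/P0, P/C; 19 in all) were called at 1.5-fold or more, as in the study. With 1 library per condition no test was run; a model across triggers and times was not fitted. Fragments per library were estimated from the smallest steps of weak genes, and exact Poisson bounds were taken for levels. The intervals of ratios used the normal approximation to log counts and cover counting error only. The steps were tested on simulated data. Coding sequences were aligned globally with Biopython 1.88. NumPy 2.4.6, pandas 2.3.3 and SciPy 1.17.1 were used.

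The XTH genes, the 17 gene lists and the motifs were chosen with earlier results of these data known. Named were all 10 XTH genes, up to 4 genes per list, and the 3 most similar genes of up to 4 members. Of the other XTH genes more than 4 were named, among them XTH18 and XTH19 beside XTH17. The genes of a list were ranked by the absolute value of their mean log2 ratio over the 3 times, in which rises and falls cancel. Results were recomputed at 2-fold, after adding 1 FPKM to each value, with the mean filter set to 10 FPKM, without a filter, after scaling by 8 reference genes or by the median ratio, and from each group's own start.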

Additional observations from a re-analysis of the deposited data

Results flagged for a closer look

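In TCH4, XTH24 and XTH33 every cold library lay above its start and every light library below it, in control and in primed plants alike. The mean log2 ratio over the 3 times in the cold minus that in light was 2.89 for TCH4 in control plants and 3.07 in primed plants. For XTH24 it was 1.199 in control plants and 1.39 in primed plants. For XTH33 it was 3.23 in control plants and 4.42 in primed plants, the latter including the value from about 2 fragments in P60L. With 1 library per condition these differences between the triggers were not tested, and XTH33 passed the filter on the mean only through its cold libraries.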

How the results depend on the processing

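No paired analysis was possible because each condition has 1 library, so the groups compared share fewer than 2 replicate numbers; pairs across triggers or times were not tested. With a 2-fold threshold the count of members that fell in the cold in control plants was 0, those higher in primed plants were 0 in cold and 0 in light, and 1 was lower in light. With a pseudocount of 1 FPKM 0 were higher and 1 lower in primed plants in light, and with a mean of at least 10 FPKM 0 were higher in cold and 0 in light. Without a filter 1 was higher in P0, 1 rose in light in control plants and 1 in primed plants, 3 were higher in primed plants in cold, and 2 were higher and 5 lower in light. Scaling by reference genes, scaling by the median ratio, and the mean of C0 and P0 as the start (chosen after seeing the data) each left 0 that fell in the cold in control plants, and median scaling gave 2 higher in primed plants in light. Of 45 single ratios past the threshold, 7 were lost with the pseudocount, 1 with reference scaling and 4 with median scaling, and none of these ratios reversed. Further ratios came past the threshold, 6 with reference scaling, 3 with median scaling and 0 with the pseudocount. The counts of members that rose in the cold or fell in light at any time stayed within 1.5 times under all alternatives, unlike those at single times. Of control plants, 3 instead of 5 fell at 120 min of light with median scaling or at 2-fold, and 1 instead of 2 rose at 120 min of cold at 2-fold and at each time with a mean of at least 10 FPKM. Of primed plants, 1 instead of 3 fell at all 3 times in light at 2-fold or with the pseudocount. Depth limits XTH15, XTH25 and the light values of XTH33. The spread between plants was not measured.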
